A study of Mus musculus with 34 samples.

Results

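A set of 9 genes of cell positioning were followed from resting to activated mouse B cells: the chemokine receptors Ccr6, Ccr7, Ccr9, Ccr10, Cxcr4 and Cxcr5, the sphingosine 1-phosphate (S1P) receptors S1pr1 and S1pr4, and the oxysterol receptor Gpr183. They were chosen by symbol, and 9 of the 23812 gene rows of the RNA table carried these symbols, 1 row each. B cells were the CD43-negative fraction of the spleen of mice aged 6 to 8 weeks, of a strain that the series design spells C56BL/6J, with no genotype change named. Activated cells had been cultured for 3 days with lipopolysaccharide at 10 µg per ml (LPS, a product of bacterial cell walls that drives B cells to divide and secrete antibody). Resting B cells, from the same fraction, served as the control, but their growth and treatment fields describe the same LPS culture, which leaves their handling unclear. Title, source name and series design put them in the resting group. RNA was measured in 2 resting and 2 activated samples. Open chromatin (FAIRE-seq), enhancer activity in a reporter (STARR-seq), the histone marks H3K27ac and H3K4me3, and chromatin contacts (Hi-C) were used from activated cells.

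These receptors couple to G proteins and steer B cells along gradients of their ligands. CXCR5 leads to the CXCL13 of the B cell follicle, CCR7 to the CCL19 and CCL21 of the T cell zone, and GPR183 (also called EBI2) to oxysterols at the rim of the follicle. S1PR1 carries lymphocytes towards the S1P of blood and lymph, while CXCR4, CCR9 and CCR10 are known for guiding antibody-secreting cells to bone marrow and mucosal tissue.

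RNA of 7 members was lower in the activated samples, and no member tested was higher. S1pr1 fell most, to 7.49% of its resting mean, followed by S1pr4 and Cxcr5, while Cxcr4, Ccr7, Ccr6 and Gpr183 kept between 41.1% and 51.1% of theirs. Ccr9 and Ccr10 were under 2 FPKM in every sample. The deposited values were treated as FPKM, that is, fragments per kilobase of transcript scaled to sequencing depth. Log2 differences are activated minus resting on log2(FPKM + 1), given ± the standard error, and p-values come from limma over 10863 tested genes with Benjamini-Hochberg adjustment, called below 0.05. In that fit 26.2% of all tested genes were called lower, 28.2% higher and 54.4% either way, against 7 of the 8 tested members lower and 0 higher. Both activated values lay below both resting values for the same 7 members and for 39.1% of tested genes, and above both for 0 of the tested members and 41.5% of tested genes. The median log2 difference was -1.24 over the 8 members and 0.03 over all tested genes. No label ties a replicate to its own animal or culture. The p-values thus reflect just the variation among these 4 samples, part of which may be technical. In bulk RNA, fewer cells of a type and less RNA per cell cannot be told apart.

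**Figure D1:**
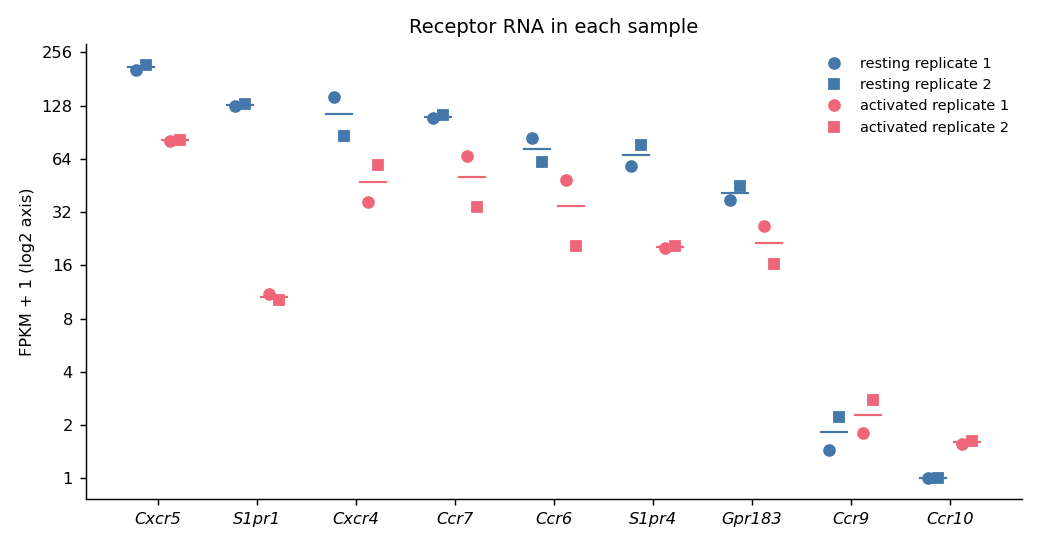
FPKM of each receptor in the 2 resting and 2 activated samples, on a log2 axis of FPKM + 1, with points for samples and bars for group means. S1pr1 drops from about the level of Cxcr4 and Ccr7 in the resting samples to below all of the other lowered receptors in the activated samples, and the Ccr9 points of the groups overlap.

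The start regions of 4 members are shown here because the peaks described further on treat them differently: a STARR peak lies over the start-side end of the Cxcr4 and Gpr183 loci and none lies at that of S1pr4 or Ccr6. Each runs 5′ to 3′ on the gene's strand from 250 bases before to 50 bases after the RefSeq gene start on GRCm38.p6, and capitals mark letters that match a searched motif. The Cxcr4 window is chr1:128592250-128592549 on the minus strand, Gpr183 is chr14:121965144-121965443 on the minus strand, S1pr4 is chr10:81500088-81500387 on the minus strand, and the more upstream of 2 RefSeq starts of Ccr6 is chr17:8235793-8236092 on the plus strand.
Cxcr4: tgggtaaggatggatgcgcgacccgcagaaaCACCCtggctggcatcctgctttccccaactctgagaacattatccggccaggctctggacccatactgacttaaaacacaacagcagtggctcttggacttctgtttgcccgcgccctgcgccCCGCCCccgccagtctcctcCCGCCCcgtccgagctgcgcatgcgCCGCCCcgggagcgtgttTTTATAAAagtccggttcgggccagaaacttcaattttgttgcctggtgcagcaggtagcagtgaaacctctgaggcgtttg
Gpr183: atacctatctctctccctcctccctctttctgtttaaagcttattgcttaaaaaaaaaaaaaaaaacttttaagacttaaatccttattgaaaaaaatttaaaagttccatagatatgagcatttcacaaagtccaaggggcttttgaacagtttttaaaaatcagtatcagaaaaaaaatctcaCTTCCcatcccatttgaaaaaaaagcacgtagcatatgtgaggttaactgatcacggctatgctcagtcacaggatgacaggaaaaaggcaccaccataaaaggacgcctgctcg
S1pr4: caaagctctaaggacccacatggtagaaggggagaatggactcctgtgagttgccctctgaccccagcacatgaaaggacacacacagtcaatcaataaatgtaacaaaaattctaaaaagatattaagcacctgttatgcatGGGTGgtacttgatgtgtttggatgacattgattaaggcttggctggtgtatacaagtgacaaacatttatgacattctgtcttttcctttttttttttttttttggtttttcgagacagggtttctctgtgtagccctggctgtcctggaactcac
Ccr6: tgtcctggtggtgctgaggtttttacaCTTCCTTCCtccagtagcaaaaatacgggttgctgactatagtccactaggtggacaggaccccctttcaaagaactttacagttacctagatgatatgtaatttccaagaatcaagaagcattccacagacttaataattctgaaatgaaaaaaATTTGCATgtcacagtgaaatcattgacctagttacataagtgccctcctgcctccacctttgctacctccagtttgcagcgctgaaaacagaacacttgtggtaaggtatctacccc
Cxcr4 differed from the others in base composition. Its window held 20 CpG dinucleotides, against a median of 7 over 32851 RefSeq mouse promoter windows of the same length, and had a GC content of 59.3%, against a median of 52.7%. Gpr183 had 4 CpG and 35.3% GC, S1pr4 had 1 CpG, and Ccr6 had 2. Motifs were searched on both strands, and each share is of all promoter windows. In Cxcr4, overlapping TATA box matches (TATAAA, 13.6%) began 32 and 30 bases before the start, with 3 GC boxes (GGGCGG, 35.7%) between 95 and 50 bases before it and a CACCC (57.5%) at 219. The Gpr183 window held 1 ETS core (GGAAG, 71.4%) 65 bases before the start, and the S1pr4 window 1 CACCC at 107. Ccr6 held the octamer (ATTTGCAT, 1.74%) 68 bases before the start and 2 ETS cores further up. No letters of CCAAT (37.4%), the forkhead TGTTTAC (3.65%), the AP-1 TGANTCA (7.81%) or the E-box CACGTG (7.15%) were in these 4 windows. RefSeq windows were matched for 5 of the 9 members, the fifth being Ccr9, and Ccr7, Cxcr5, Ccr10 and S1pr1 had none in the table used. The other RefSeq start of Ccr6, not printed, had 10 CpG in its window and an ETS core 14 bases before it, with no octamer. A match describes letters only.

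S1pr1, the receptor for exit from lymphoid organs (chr3:115413350-115417973 on mm9, the build of all peaks and loci here), had FPKM of 126 and 129.6 in the resting samples. The activated samples gave 9.99 and 9.14. Both activated samples were far below both resting ones, and replicates of a group lay close together. S1pr1 fell by 3.61 ± 0.16 on the log2 scale (95% interval -3.99 to -3.22, limma adjusted p = 4.02e-05), 12.2-fold on FPKM + 1. It was the member with the largest change, and ranked 56 of the 10863 tested genes from the largest fall. S1pr4, a second S1P receptor of blood cells (chr10:80960489-80962882), had 57.5 and 75.8 FPKM at rest and 19.1 and 19.7 after activation. The groups did not overlap, and S1pr4 fell by 1.71 ± 0.19 (95% interval -2.17 to -1.26, limma adjusted p = 0.000602), leaving 29.2% of the resting mean. Both calls held under all 12 alternative settings.

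Cxcr5, the receptor that places B cells in follicles (chr9:44319869-44334504), was the most abundant member in both states. Its FPKM was 201 and 217 at rest and 80.3 and 80.5 after activation. The groups were well apart and the activated replicates nearly equal. Cxcr5 fell by 1.37 ± 0.20 (95% interval -1.84 to -0.90, limma adjusted p = 0.00160), to 38.4% of its resting mean, and the call held under all 12 alternatives.

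Ccr7, which draws B cells towards the T cell zone (chr11:99005512-99016391), had 107 and 112 FPKM at rest. The activated samples gave 65.5 and 33.2. The resting pair was close, whereas activated replicate 1 was 1.97 times replicate 2, and both were below the resting pair. Ccr7 fell by 1.21 ± 0.32 (95% interval -1.97 to -0.46, limma adjusted p = 0.0173). The call was lost without resting replicate 1 (adjusted p = 0.0604) and without resting replicate 2 (adjusted p = 0.0630), fits in which the remaining resting sample is assumed to vary like the activated ones. The Ccr7 log2 difference was -0.73 without activated replicate 2 and -1.69 without activated replicate 1.

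Gpr183, the oxysterol receptor (chr14:122351552-122364415), had 36.2 and 43.8 FPKM at rest and 25.6 and 15.2 after activation. The groups did not overlap, although activated replicate 1 was 1.68 times replicate 2. Gpr183 fell by 0.97 ± 0.26 (95% interval -1.59 to -0.36, limma adjusted p = 0.0182). The adjusted p was 0.0851 without resting replicate 2 and 0.05004 without activated replicate 2, with log2 differences of -0.84 and -0.62. The locus lies inside that of Ubac2, whose mean FPKM of 25.1 at rest and 18.5 after activation did not pass the test. No strand is given for the RNA table, so reads of the overlapping genes cannot be told apart.

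Cxcr4, the CXCL12 receptor (chr1:130484775-130488876), was the member whose replicates spread most at rest on the FPKM scale, at 142 and 84.9. Its activated values were 35.3 and 57.9. The replicates differed in opposite order in the groups, and every activated value was still below every resting one. Cxcr4 fell by 1.26 ± 0.33 (95% interval -2.05 to -0.48, limma adjusted p = 0.0172). Without resting replicate 1 the log2 difference was -0.89 (adjusted p = 0.0970), and without activated replicate 1 it was -0.91 (adjusted p = 0.0633).

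Ccr6, the receptor for CCL20 (chr17:8428907-8449994), had 83.3 and 60.0 FPKM at rest and 47.5 and 19.7 after activation. The groups did not overlap, but activated replicate 1 was 2.41 times replicate 2, the widest ratio among the lowered members. Ccr6 fell by 1.18 ± 0.40 (95% interval -2.16 to -0.20, limma adjusted p = 0.0473), and only 5 of 12 alternatives kept the call. It was lost without resting replicate 1 (log2 difference -0.95, adjusted p = 0.231), resting replicate 2 (-1.41, 0.0887) or activated replicate 2 (-0.56, 0.123). Without activated replicate 1 the Ccr6 log2 difference was -1.79. The call was also lost with the values scaled to a common median (adjusted p = 0.0720) or quantile normalised (0.0604).

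The mucosal receptors were scarce. Ccr9, the receptor for CCL25 of the small intestine (chr9:123676328-123692575), had 0.440 and 1.22 FPKM at rest and 0.798 and 1.76 after activation, and the groups overlapped. Its log2 difference of 0.32 ± 0.28 did not pass the test (95% interval -0.34 to 0.98, limma adjusted p = 0.360). Ccr10, a receptor of IgA-secreting cells (chr11:101034311-101036757), was listed at 0 in both resting samples and at 0.559 and 0.633 in the activated samples. It lay under the filter of at least 1 FPKM in at least 2 samples and was not tested.

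**Figure D2:**
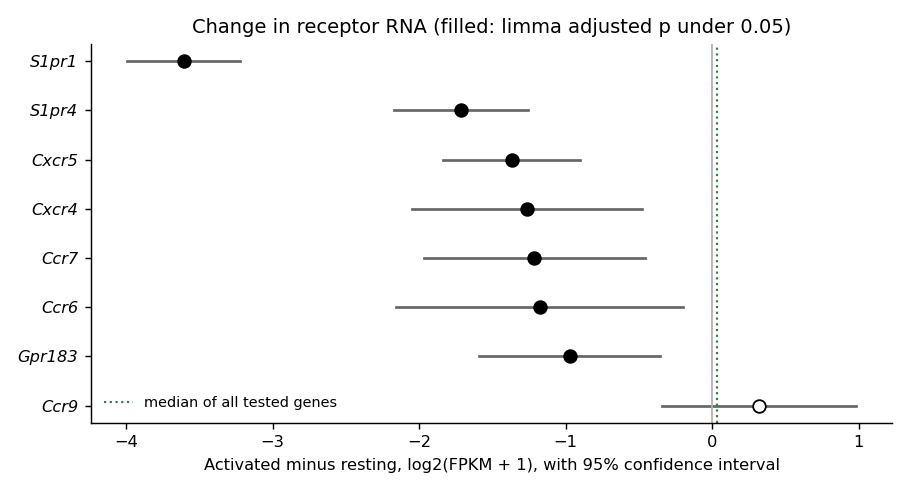
Log2 difference, activated minus resting on log2(FPKM + 1), of the 8 tested receptors, with limma 95% intervals as bars. The intervals of 7 receptors lie below 0, with S1pr1 at -3.61 apart from the others, and that of Ccr9 spans 0.

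The order of the members changed mainly at S1pr1. At rest Cxcr5 was highest and stood apart from the next member. S1pr1, Cxcr4 and Ccr7 followed with sample ranges that overlapped from each to the next, then Ccr6 and S1pr4, also overlapping, then Gpr183, Ccr9 and Ccr10, each apart. After activation Cxcr5 was again highest and apart. Ccr7, Cxcr4, Ccr6, Gpr183 and S1pr4 followed with ranges overlapping from each to the next. S1pr1, at rank 2 of 9 at rest, stood at rank 7 after activation, apart from S1pr4 above it and Ccr9 below it. Summed over the 9 members, FPKM ranged from 724 to 754 at rest and from 238 to 285 after activation.

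Across the table, FPKM summed to between 244602 and 287884 per sample, and read totals are not given in the files used, so the depth behind each value is unknown. B cell markers also fell: 5 of 6 were called lower, with a median log2 difference of -0.98. Their summed FPKM went from 3219 to 3590 at rest to 1426 to 2005 after activation. For these and the other markers, the shares over all tested genes were 26.2% lower and 28.2% higher. Of the plasma cell markers 4 of 5 tested were higher, and the sum went from 132 to 181 up to 1793 to 2027. Markers of other cells were mostly lower. T cell markers fell in 4 of 4 tested (sum 25.6 to 37.6 at rest, 1.87 to 2.99 activated, with Cd3e, Cd3d and Cd3g listed at 0 in both activated samples). NK cell markers fell in 2 of 2 (6.67 to 22.2, then 0.392 to 1.01, with Klrb1c, Klrd1, Ncr1 and Gzma at 0), and myeloid markers in 8 of 9 (463 to 872, then 10.8 to 13.4, with C1qa and C1qb at 0). Dendritic cell markers were lower in 3 and higher in 2 of 5 (43.4 to 48.8, then 88.6 to 144.5, with Siglech at 0). Endothelial or stromal markers fell in 2 of 2 (112 to 131, then 17.7 to 25.6) and erythroid markers in 4 of 4 (1361 to 9059, then 5.17 to 14.3). Among the B cell markers, Cd22, Cd79b and Ms4a1 lost their call without resting replicate 2 (adjusted p = 0.0609 to 0.158), and all 4 erythroid calls were lost without either activated replicate. The NK cell marker Prf1 was not called without resting replicate 1 (adjusted p = 0.0764) or resting replicate 2 (0.0615). The part of these markers in the lower values of the receptors was not tested.

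The regulators of these receptors moved in both directions. Of 8 tested, 5 were lower and 3 higher, with a median log2 difference of -1.16, beside 26.2% lower and 28.2% higher over all tested genes. Klf2, a transcription factor known to activate S1pr1, fell from 180.2 ± 22.4 to 23.3 ± 3.18 FPKM (SD, n = 2 in each group here and below). The limma log2 difference of Klf2 was -2.90 ± 0.20. Bcl6, Bach2, Pax5 and Foxo1, transcription factors of follicular and mature B cells, were lower too, with log2 differences of -2.60, -1.75, -1.41 and -0.92. Prdm1, the plasma cell regulator, rose from 1.25 ± 0.03 to 68.6 ± 10.3 FPKM and Xbp1, of the secretory programme, from 43.9 ± 4.72 to 434 ± 45.7. Cd69, whose protein binds S1PR1 and removes it from the surface, rose from 39.0 ± 4.94 to 71.4 ± 2.14 FPKM (log2 difference 0.86 ± 0.18, limma adjusted p = 0.00782). Without resting replicate 1 the Cd69 call was lost (adjusted p = 0.0927), and the counts of the list stayed within 1.5 times.

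Enzymes and transporters of S1P and oxysterols were lower in 7 of 9 tested and higher in 0, with a median log2 difference of -0.97. The shares over all tested genes were 26.2% lower and 28.2% higher. Cyp27a1, an oxysterol-forming enzyme, fell from 14.4 ± 0.01 to 0.178 ± 0.008 FPKM (log2 difference -3.71), and Spns2, an S1P exporter, from 13.2 ± 2.07 to 0.803 ± 0.294 (-2.98). The S1P transporter Mfsd2b and the S1P phosphatase Sgpp2 had log2 differences of -1.12 each. Sphk2, which makes S1P, and the ceramide synthase Cers2 did not pass the test. With either resting replicate left out, only 6 of these genes were tested. Cyp27a1, Sgpp2 and Mfsd2b, under 1 FPKM in both activated samples, then fell under the filter on low values. Fewer genes were called lower in both of these fits. Ligand genes were mostly out of reach: of 10, 6 had a single row and 2 were tested. Ccl25 was higher (0.791 ± 0.029 to 1.48 ± 0.237), and Cxcl13, the CXCR5 ligand, was lower, from 1.55 and 1.17 at rest to values listed at 0 in both activated samples. With either resting replicate left out, Cxcl13 fell under the filter and was not tested, and Ccl25 was not called. Ccl25 in turn fell under the filter with either activated replicate left out.

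Other chemokine and S1P receptors were lower in 6 of 12 tested and higher in 1, with a median log2 difference of -1.24. Over all tested genes the shares were 26.2% lower and 28.2% higher. Ccr3 fell from 13.03 ± 0.79 to 0.013 ± 0.018 FPKM, and S1pr3 from 11.4 ± 0.89 to 1.56 ± 0.44. Ccr1, Xcr1 and Cxcr3 were also lower, as was Ackr1 (Darc in the table), which was listed at 0 in both activated samples. Ccrl2, an atypical receptor, rose from 2.16 ± 0.11 to 6.76 ± 2.41 FPKM. Ccr2, Ackr2, Ackr3 and S1pr2 were among those that did not pass the test. S1pr2, which confines B cells to germinal centres, had 1.89 ± 0.72 FPKM at rest and 1.71 ± 0.02 after activation. With either resting replicate left out, 1 gene of this list was called lower, since the other lower genes then fall under the filter on low values.

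Signalling partners of the receptors were less uniform. Among 23 genes of G protein coupling and desensitisation, 13 were lower, 2 higher and 8 not called, with a median log2 difference of -0.50. All tested genes had shares of 26.2% lower and 28.2% higher. Adrbk2, which encodes the receptor kinase GRK3, fell from 11.5 ± 2.07 to 0.154 ± 0.152 FPKM, the arrestin gene Arrb1 from 13.8 ± 0.52 to 1.57 ± 0.41, and Rgs2, a brake on G proteins, from 35.4 ± 3.41 to 4.28 ± 0.32. Rgs1, another such brake, was uneven at rest, at 20.4 and 4.32 FPKM, and had 0.613 and 0.550 after activation (log2 difference -2.76 ± 0.74, limma adjusted p = 0.0417, but 0.274 and 0.288 without activated replicate 1 or 2). Rgs16 rose from 0.053 ± 0.037 to 2.85 ± 0.16 FPKM, and Gnb1, a G protein subunit, had a log2 difference of 0.56, a call lost without either resting replicate or activated replicate 2 (adjusted p = 0.125 to 0.297). With either resting replicate left out, 7 genes were called lower. Of 17 genes of the migration machinery 6 were lower, 1 higher and 10 not called, with a median of -0.38, beside the same shares. Rasgrp2, an activator of Rap1, fell from 57.4 ± 8.20 to 10.4 ± 2.39 FPKM, and Arhgef1, an activator of RhoA, from 124 ± 4.42 to 47.2 ± 3.74. Rassf5 had a log2 difference of -0.97, and Rap1a, the gene that rose, one of 1.04. With either resting replicate left out, 3 genes were called lower, and Rap1a was not called without resting replicate 1 (adjusted p = 0.0623). With quantile normalisation 11 genes were called lower.

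Homing adhesion molecules split. Of 12 tested, 5 were lower and 3 higher, with a median log2 difference of -0.02. Beside them, 26.2% of all tested genes were lower and 28.2% higher, and the count higher lay near that share. These counts are a description only. Itgb7, the integrin chain of gut homing, fell from 49.96 ± 4.36 to 1.91 ± 0.50 FPKM (log2 difference -4.14 ± 0.18). Icam2, Itga4 and Itgb2 were lower by smaller amounts. The Itgb2 call was lost with any of the 4 samples left out, and without resting replicate 1 those of Itga4 (adjusted p = 0.0840) and Itgal (0.0581) were lost too, leaving 3 genes lower. Cd44, Itgb1 and Itgal, adhesion molecules of activated lymphocytes, were higher, with log2 differences of 1.15, 1.05 and 0.90.

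**Figure D3:**
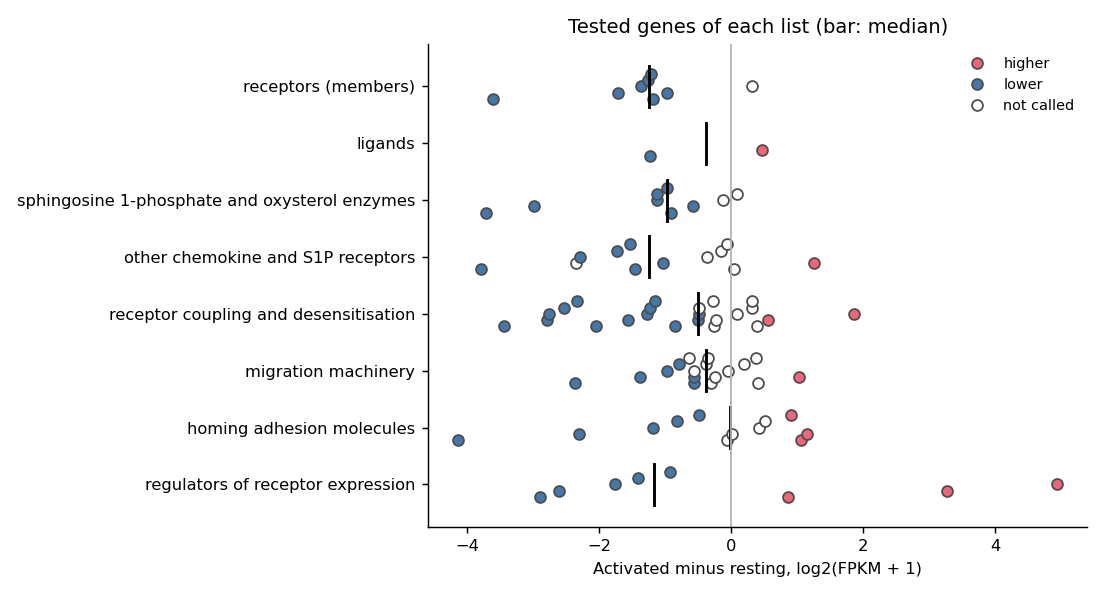
Log2 difference, activated minus resting on log2(FPKM + 1), of every tested gene of each list, coloured by the limma call, with the list median as a bar. Receptors and S1P or oxysterol enzymes lie mainly below 0, the adhesion molecules lie on both sides, and the regulators span from Klf2 at -2.90 to Prdm1 at 4.94.

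Peaks in activated cells were counted within each locus extended by 10 kb on both sides, beside the share of tested genes with at least 1. The lists hold 1 set of peaks per assay with no score, so no replicate error can be given and no test was made. FAIRE peaks lay at all 9 loci (96.2% of tested genes), from 1 at Ccr9 to 11 at Gpr183, with 10 at S1pr1 and 9 at Cxcr5, against a median of 4 over tested genes. H3K27ac, found at active promoters and enhancers, had peaks at all 9 (92.9%), with 7 at Cxcr5 and 6 at Gpr183. H3K4me3, the mark of active gene starts, had peaks at 8 (93.8%), all but Ccr9. STARR peaks lay at 7 (72.1%), namely 3 each at Cxcr5 and S1pr1, 2 at Cxcr4 and 1 each at Ccr7, Ccr9, S1pr4 and Gpr183. None of the 9 lay near a super-enhancer (0.644% of tested genes).

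**Figure D4:**
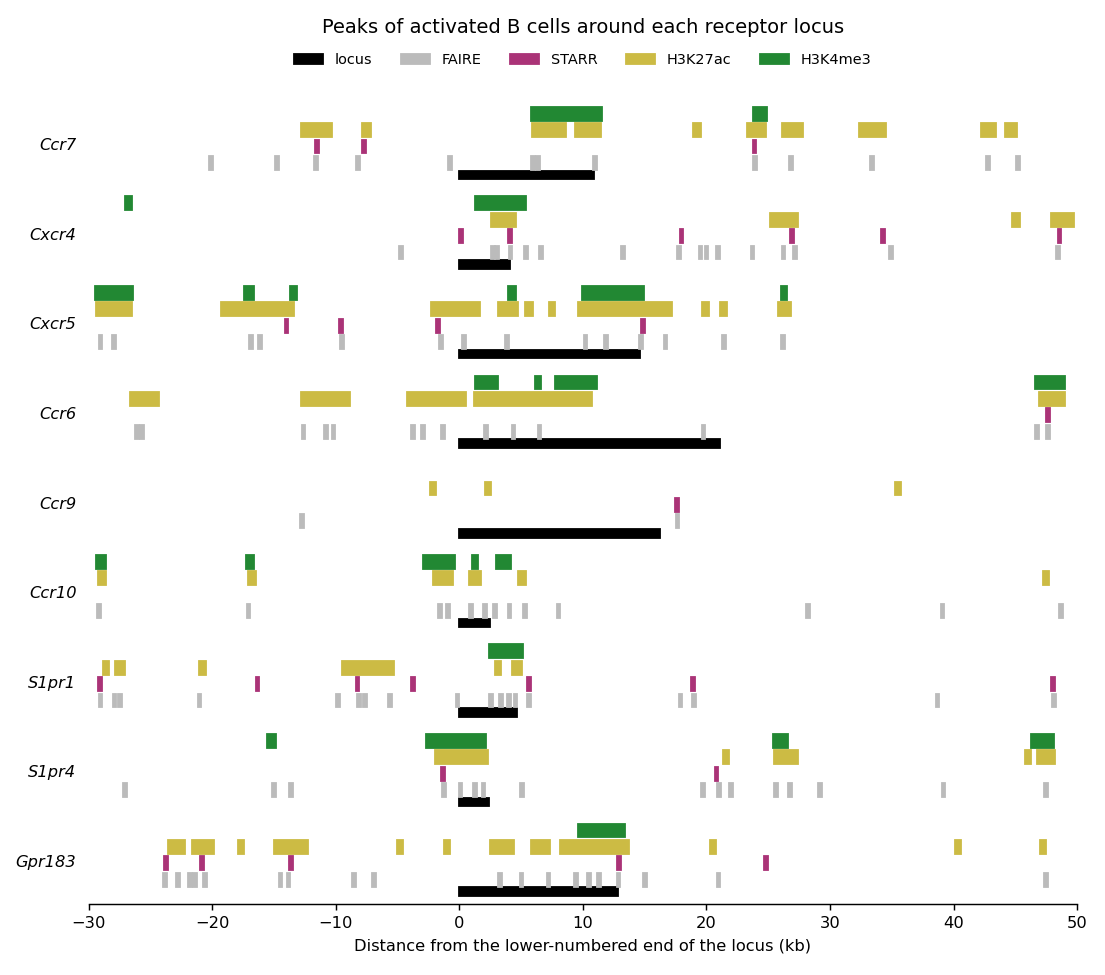
Peaks of activated cells around each receptor locus, in kb from the lower-numbered end of the locus, with the locus as a bar and 1 row each for FAIRE, STARR, H3K27ac and H3K4me3. STARR peaks lie at an end of the Cxcr4, Cxcr5 and Gpr183 loci, at a distance from the S1pr1, S1pr4, Ccr7 and Ccr9 loci, and none is drawn within 10 kb of Ccr6 or Ccr10.

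Peaks at the ends of the loci in activated cells were counted over all 9 members, including Ccr9 and Ccr10, which were not called lower. Either end was counted, not the gene start alone, and the counts lay near the shares over all tested genes. A FAIRE peak lay within 500 bp of either end of the locus at 7 of 9 members (85.5% of tested genes), an H3K27ac peak at 8 (84.5%) and an H3K4me3 peak at 7 (87.8%). At S1pr1 an H3K4me3 peak of 2794 bp covered the higher-numbered end, together with an H3K27ac peak of 799 bp. Ccr7 had an H3K4me3 peak of 5706 bp there, Cxcr5 one of 5022 bp, Cxcr4 one of 4092 bp and Gpr183 one of 3870 bp. In Ccr6 all 3 H3K4me3 peaks were inside the locus, and all overlapped an H3K27ac peak of 9559 bp. At S1pr4 a peak of 4830 bp ran over most of the short locus and into Ncln next to it. Ccr10, under 1 FPKM in every sample, had 3 H3K4me3 and 8 FAIRE peaks in its window, which also holds parts of Plekhh3 and Cntnap1. The nearest H3K4me3 peak to Ccr9 was 48889 bp away.

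A STARR peak within 500 bp of either end was found at 3 of 9 members (47.7% of tested genes). At Cxcr4, chr1:130488730-130489029 covered the higher-numbered end, which is the start side of this minus-strand gene, and overlapped FAIRE, H3K27ac and H3K4me3 peaks. This is the side of the CpG-rich Cxcr4 window printed above. A further STARR peak at chr1:130484730-130485030 covered the other end of Cxcr4 and overlapped no other list. At Gpr183, also on the minus strand, chr14:122364301-122364601 covered the start-side end and overlapped all 3 other marks. At Cxcr5, chr9:44334574-44334874 began 70 bp beyond the higher-numbered end and overlapped all 3. The other Cxcr5 peaks, chr9:44318001-44318300 and chr9:44310155-44310455, fell within the neighbouring Bcl9l.

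The remaining STARR peaks stood off the loci. At S1pr1, chr3:115418851-115419150 lay 878 bp beyond the higher-numbered end in a FAIRE peak with no H3K27ac, chr3:115404953-115405253 lay 8097 bp before the other end in FAIRE and H3K27ac peaks, and chr3:115409438-115409738 overlapped no other list. S1pr4 had chr10:80959030-80959330, 1159 bp from its lower-numbered end with all 3 marks, at the edge of Ncln. The Ccr7 peak, chr11:98997625-98997924, was 7588 bp away with H3K27ac and no FAIRE peak. The Ccr9 peak, chr9:123693814-123694114, was 1239 bp past the locus with FAIRE only. For Ccr6 the nearest STARR peak was 26428 bp away, at Mpc1, and for Ccr10 it was 52981 bp away. Between 10 and 50 kb Gpr183 had 7 further STARR peaks, all in Ubac2, Cxcr4 and S1pr1 had 5 each and Cxcr5 had 4.

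Hi-C contacts were taken from the authors' list of enhancer and promoter pairs, which holds 27903 distinct contacts with anchors of 500 to 5000 bp. An anchor overlapped the locus of 6 of 9 members, and of 78.9% of tested genes. S1pr4 had 9 contacts, Ccr7 8, Cxcr4 7, Cxcr5 and S1pr1 4 each and Gpr183 1, against a median of 3 over tested genes and 10 at the 90th percentile. Ccr6, Ccr9 and Ccr10 had none in this list. Each S1pr4 anchor of 5000 bp also overlapped the neighbouring Ncln, and the Cxcr5 anchor of the Ube4a contact also overlapped Bcl9l. The Gpr183 anchor lay within Ubac2. Such contacts cannot be assigned to the receptor alone. Overlapping pairs merged the 33 contacts into 29, of which 27 had a STARR peak in the partner anchor (73.0% of all anchors) and 24 an H3K27ac peak (84.98%). These shares pool both anchors of every contact, and the list was selected for enhancer and promoter pairs. The counts can therefore not show an excess of STARR or H3K27ac peaks at the partners. Replicates were pooled in the list, so contacts carry no replicate error.

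Several receptors were in contact with anchors that overlap no gene locus. Ccr7 had 147 reads to an anchor 11.04 kb away (chr11:99026555-99031555), which holds a STARR peak at chr11:99029239-99029539 with FAIRE, H3K27ac and H3K4me3. It had 140 reads to another at 19.1 kb (chr11:98993014-98998014), which holds 2 STARR peaks. Cxcr5 had 132 reads to an anchor 76.8 kb away (chr9:44407193-44412193) with 1 STARR, 2 FAIRE and 2 H3K27ac peaks. S1pr1 had 63 reads to an anchor at 76.5 kb (chr3:115494137-115499137), which held a STARR and a FAIRE peak and neither histone mark. S1pr4 had 51 reads at 105 kb and 50 at 74.6 kb, both from own anchors that also overlap Ncln. The single Gpr183 contact had 5 reads over 1695 kb. The anchors of these contacts are 5000 bp long, and an overlapping Cxcr5 pair with anchors of 1000 bp had 6 reads. Contacts were therefore not ranked by reads.

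**Figure D5:**
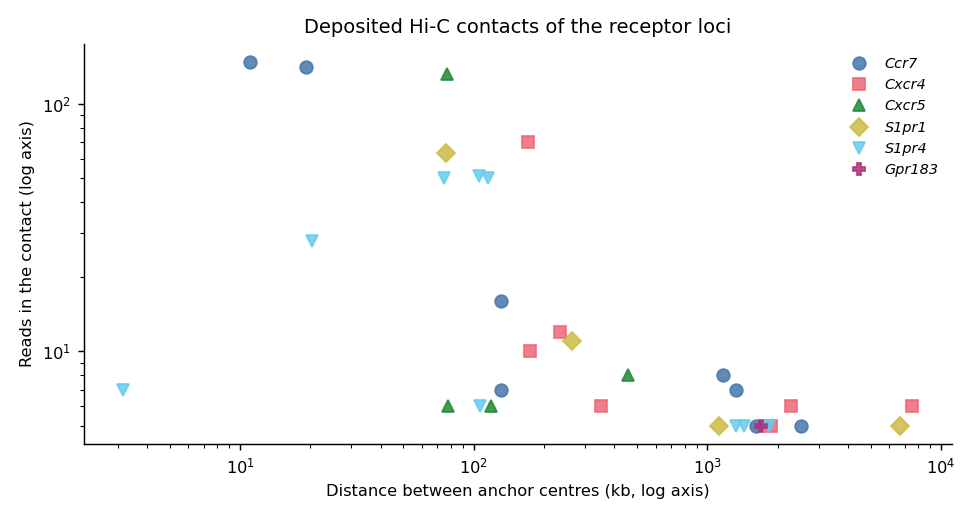
Read count of each deposited Hi-C contact of a receptor locus against the distance between its anchors, both on log10 axes, by receptor. Ccr7 and Cxcr5 contacts exceed 100 reads at under 100 kb, and contacts beyond 1000 kb have 8 reads or fewer.

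Genes in the partner anchors moved in both directions. Of 18 partner genes, 6 were lower, 4 higher and 8 not called, beside 26.2% lower and 28.2% higher over all tested genes, so these counts are given as a description only. Cxcr4, itself lower, was in contact with Dars (70 reads, 170.8 kb), Mcm6 and Ubxn4, which were higher, and with Cd55, Faim3 and Kif21b, which were lower. Dars went from 19.0 ± 1.99 to 43.3 ± 2.58 FPKM. Ccr7 was in contact with Top2a (16 reads, 130.7 kb), a gene of dividing cells, which rose from 6.13 ± 0.14 to 117 ± 33.2 FPKM. The S1pr4 partners Gna15, a G protein subunit gene (28 reads, 20.3 kb), Cirbp and Slc41a2 were lower. BC025920 and Dohh (50 reads, 115.4 kb) were not called. On the receptor side, the anchors of the Cirbp, Slc41a2 and Dohh contacts also overlap Ncln, and that of the Cxcr5 contact with Ube4a overlaps Bcl9l. The Gna15 and Slc41a2 calls were lost with either resting replicate left out (adjusted p = 0.0548 to 0.174). Neither Cxcr5 partner gene (Trappc4 and Ube4a) nor the S1pr1 partner Slc30a7 passed the test.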

How the data were processed

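RNA-seq was compared between 2 resting and 2 activated samples, grouped by their labels. Per the submitters' processing notes the build was mm9 and the tools included the aligners STAR, TopHat2, Bowtie and Bowtie2, with HOMER and bedtools, versions not given. The authors deposited the RNA values without naming the unit or how they were made, and these were treated as FPKM, since they are not whole and their sums differ. No count test was applicable. Depth is unknown, so no counting interval can be given. Genes with at least 1 FPKM in at least 2 samples were fitted with limma 3.58.1 (trend and robust, R 4.3.3) on log2(FPKM + 1) with no covariate, checked on simulated data.

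The members and gene lists were chosen with earlier results of these data known. Text names all 9 members and, per list, up to 4 called genes with the largest difference plus genes needed to account for counts of 5 or fewer. Neighbouring and contact partner genes are named for position. Some list genes are not reported here. The authors filtered the Hi-C contacts for enhancer and promoter pairs before they deposited them, with a read count, a z-score and a log p score made by the authors for each contact, per the deposited table's title and header. The authors' peak lists per the labels give positions only. Anchors and peaks were joined to loci by overlap of at least 1 bp, and 1 unlabelled value column was not used. Promoter windows came from RefSeq (GRCm38.p6), and no coordinate was converted between builds. Alternatives changed pseudocount, filter, scaling, replicate block, trend, samples, locus extension and contact threshold.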

Additional observations from a re-analysis of the deposited data

How the results depend on the processing

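None of the 7 members called lower changed direction under any of the 12 alternatives to the RNA fit. S1pr1, S1pr4 and Cxcr5 kept their call in all 12, Ccr7, Cxcr4 and Gpr183 in 9 and Ccr6 in 5, and Ccr9 was called in none of the 9 alternatives that tested it. With no filter on low values, 3 members were called lower (S1pr1, S1pr4 and Cxcr5) and 1 higher (Ccr10, from values listed at 0). Leaving out each sample in turn gave 4 to 6 members lower, with 4 without resting replicate 1 and 4 without resting replicate 2. Over all genes, 1735 were higher and 1229 lower without resting replicate 1, and 2133 and 1191 without resting replicate 2, against 3066 and 2844 with all samples. The labels do not say that a replicate number pairs samples, and same-numbered samples deviated together with r = 0.124 over genes, from only 2 pairs. With the replicate number as a block 7 members were called lower, the same count, and 0 higher.

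With loci not extended, FAIRE peaks over the 9 loci numbered 31, STARR peaks 3 (at 2 members) and H3K27ac peaks 18, against 63, 12 (at 7 members) and 30. With 50 kb they numbered 163, 40 and 78, and H3K4me3 peaks 33 against 13. Contacts numbered 18 at a z-score at or above the list median and 18 at a read count at or above the median, against 33. Among the gene lists, 34 of 168 alternative counts moved by more than 1.5 times, 21 of them with a sample left out. With 2 samples per group and unknown depth, changes near the threshold are not resolved. The cause of these shifts was not tested.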
